A study of Homo sapiens with 8 samples.

Results

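A group of 10 genes that build or guide the neuronal cytoskeleton was followed through a methylated RNA immunoprecipitation sequencing (MeRIP-seq) experiment in neuroblastoma cells. They were the intermediate filament genes NEFL, NEFM, NEFH, INA and PRPH, the stathmins STMN1, STMN2 and STMN3, and the growth-associated genes GAP43 and NSG1. The 10 genes were chosen by name, with their changes in these libraries already known, from 56303 genes in the count table. Their values are therefore given as a description, without a p-value. Where a gene is said to have passed a test across all genes, that call is part of the description.

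Neurofilaments are the intermediate filaments of mature neurons, and the light, medium and heavy chains (NEFL, NEFM and NEFH) co-assemble with INA (alpha-internexin) or PRPH (peripherin, the subunit typical of peripheral and sympathetic neurons) to support the calibre of the axon. Stathmins bind free tubulin and promote the disassembly of microtubules. STMN1 is found in many dividing cells, whereas STMN2 and STMN3 are anchored to membranes and are largely neuronal. GAP43 is a phosphoprotein of the growth cone membrane, and NSG1 is a small protein of neuronal endosomes. N6-methyladenosine (m6A) is a methyl mark on messenger RNA that is deposited by METTL3 together with its partner METTL14. The sympathetic lineage from which neuroblastoma arises expresses neuronal genes of these families as it differentiates.

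The cells were SK-N-BE(2), an established human neuroblastoma line, and the question was what knockdown of METTL14 does to m6A and to RNA levels. One arm carried a control short hairpin RNA (sh-NC) and the other an shRNA against METTL14 (shMETTL14), both delivered by lentivirus with puromycin selection per the study's methods, so that both arms share the vector and the drug. Each arm had 2 cultures, and by the numbers in the labels each culture gave 2 libraries, which makes 8 libraries. They were 1 library of fragmented poly(A) RNA (input) and 1 library of the fragments pulled down by an m6A antibody (IP). The labels number the cultures 1 and 2 and state neither whether they were grown separately nor whether both shMETTL14 cultures carry the same hairpin, so every p-value measures the spread between these libraries only, which may be technical.

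The 8 libraries held 32027379 to 47205265 counted reads. The 10 genes had between 716 and 91513 reads per library, and the lowest count belonged to NSG1. METTL14 was at 49.5 and 48.8 CPM (read counts relative to the size of the library, adjusted with TMM factors) in the sh-NC inputs, against 13.7 and 14.6 CPM in the shMETTL14 inputs. The labelled cell type was checked on 8 adrenergic neuroblastoma markers, all of which were detected, with a summed input level of 5557 to 5831 CPM. Most of that sum was MYCN, at 4224 to 4452 CPM, and 5 of the 8 (HAND2, GATA3, ISL1, DBH and TH) passed edgeR's test as higher in the shMETTL14 inputs, with TH at 32.6 and 35.7 CPM in sh-NC, compared with 68.9 and 70.2 CPM in shMETTL14. Of the other cell types, 6 Schwann cell markers summed to 5.14 to 6.04 CPM, with SOX10 at 13 reads or fewer per input and CDH19 at 0, and 4 blood cell markers summed to 1.49 to 2.05 CPM, with HBB at 0 reads. The 6 fibroblast markers were all detected and summed to 411 to 422 CPM, a range in which the arms overlap. Within that list COL1A1 and PDGFRB passed as lower and COL3A1, DCN and LUM as higher in the shMETTL14 inputs. Over all genes tested, 11.7% passed as higher and 12.3% as lower in that comparison. The part of these marker differences in the results was not tested.

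The input libraries give the level of each RNA. Levels of different genes were compared as RPKM, which is the CPM divided by the summed length of a gene's exons in kilobases. That length takes in every annotated exon, 6288 bases for STMN1 and 2362 for STMN2, so the order of genes depends on the annotation. By CPM, STMN1 was above STMN2 in sh-NC, at 769 and 699 against 372 and 365. NEFM was the highest of the 10 in sh-NC, at 205 and 194 RPKM in the 2 cultures, followed by STMN2 at 157 and 154 RPKM. STMN1 stood at 122 and 111 RPKM, PRPH at 112 and 120 RPKM, and NEFH at 117 and 114 RPKM. STMN1 and PRPH, and PRPH and NEFH, overlapped between cultures, so these neighbours in the order did not differ beyond their spread. GAP43 followed at 108 and 105 RPKM, and the remaining genes were lower, with NEFL at 46.2 and 44.7 RPKM, STMN3 at 40.4 and 41.8 RPKM and INA at 28.2 and 28.9 RPKM. NSG1, at 9.07 and 9.17 RPKM, had the lowest level.

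The 10 genes thus covered a wide range in the control cells, with the medium neurofilament chain at the top and the light chain more than 4-fold below it. In shMETTL14, NEFM was at 474 and 467 RPKM and STMN2 at 341 and 343 RPKM, and they kept the first and second place. STMN1 stood below GAP43, at 107 and 113 RPKM against 115 and 114 RPKM. PRPH and NEFH again overlapped, at 146 and 143 RPKM and at 143 and 144 RPKM. NSG1 stayed the lowest at 21.1 and 21.6 RPKM.

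**Figure D1:**
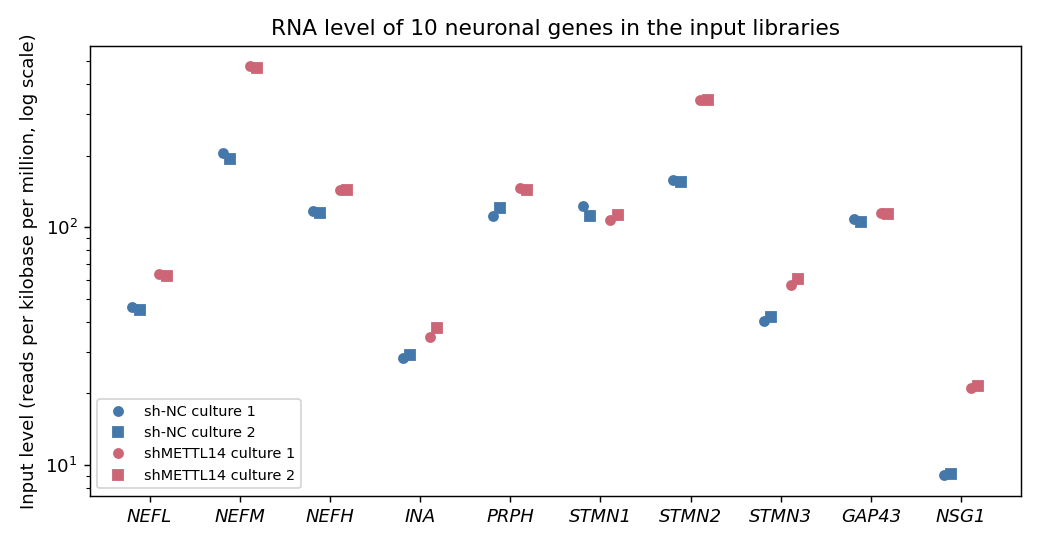
Input level of each gene on a log scale, in RPKM, with 1 point per input library (blue for sh-NC, red for shMETTL14, circles for culture 1 and squares for culture 2). NEFM, STMN2 and NSG1 show the widest gap between the arms, and the 4 points of STMN1 are the only ones in which the arms overlap.

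Comparison of the inputs between the arms asked which of these RNAs differed after METTL14 knockdown. Of the 10 genes, 9 were higher in both shMETTL14 inputs than in both sh-NC inputs, all but STMN1, and none was lower in both. Of all 22245 genes tested, 28.5% separated the arms as higher and 29.9% as lower. NEFM, STMN2 and NSG1 were more than 2-fold higher, and the other 6 were 1.07-fold to 1.43-fold higher. In edgeR's quasi-likelihood test across all genes the same 9 genes passed an adjusted p of 0.05 as higher and none as lower, beside 11.7% of all genes called higher and 12.3% called lower. The median log2 difference of the 10 genes was 0.41, beside 0.0024 over all genes tested. The genes were chosen on this contrast, so nothing is read from that count or from this median. In bulk RNA a change in the share of cells that express a gene cannot be told apart from a change in the RNA per cell.

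Among the neurofilament chains, NEFM had 899 and 851 CPM in sh-NC, compared with 2076 and 2045 CPM in shMETTL14, a 2.36-fold difference (log2 1.24 ± 0.030, SE, n = 2 per arm, as for all the estimates that follow). The cultures of each arm lay close together and far from the other arm. NEFL, whose gene lies 31856 bases from NEFM on chromosome 8, had 200 and 194 CPM in sh-NC, against 276 and 269 CPM in shMETTL14. This was a 1.39-fold difference (log2 0.48 ± 0.035), smaller than that of its neighbour. NEFH, on chromosome 22, had 442 and 433 CPM in sh-NC, compared with 540 and 543 CPM in shMETTL14, or 1.24-fold (log2 0.32 ± 0.031).

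The subunits therefore differed between the arms by unequal amounts. Per length, NEFM stood at 4.44 and 4.34 times the level of NEFL in the sh-NC cultures, against 7.43 and 7.50 times in the shMETTL14 cultures. NEFH stood at 2.53 and 2.56 times NEFL in sh-NC, compared with 2.24 and 2.31 times in shMETTL14. Of the summed RPKM of the 5 filament genes, NEFM made up 40.4% and 38.7% in sh-NC, against 55.1% and 54.7% in shMETTL14. These ratios within a library do not depend on the scaling between libraries.

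The alternative partners of the neurofilament chains were also higher. INA had 91.1 and 93.4 CPM in sh-NC, compared with 111 and 122 CPM in shMETTL14 (1.26-fold, log2 0.34 ± 0.046). PRPH had 486 and 522 CPM in sh-NC, against 634 and 624 CPM in shMETTL14 (1.25-fold, log2 0.33 ± 0.034). The values of PRPH are uncertain, because a gene on the opposite strand, RP11-161H23.9, shares 2445 exonic bases with it and held 90.6% to 96.8% as many reads.

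Of the 3 stathmins, STMN2 and STMN3 were higher in shMETTL14 and STMN1 overlapped between the arms. STMN2 had 372 and 365 CPM in sh-NC, compared with 806 and 810 CPM in shMETTL14 (2.19-fold, log2 1.14 ± 0.031). STMN3 had 123 and 127 CPM in sh-NC, against 174 and 183 CPM in shMETTL14 (1.43-fold, log2 0.52 ± 0.040). STMN1, the stathmin of dividing cells, had 769 and 699 CPM in sh-NC, compared with 673 and 709 CPM in shMETTL14, and the arms overlapped (0.942-fold, log2 -0.08 ± 0.037). STMN2 stood at 1.29 and 1.39 times STMN1 per length in sh-NC, against 3.19 and 3.04 times in shMETTL14. Without sh-NC culture 2, in which STMN1 was lower than in culture 1, STMN1 was estimated at log2 -0.15 and passed the test across all genes as lower.

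GAP43 and NSG1 marked the low and the high end of the differences outside the cytoskeletal families. GAP43 had 226 and 220 CPM in sh-NC, compared with 240 and 238 CPM in shMETTL14, a gap of 1.07-fold (log2 0.10 ± 0.035). The arms did not overlap, but the difference was small and its call was lost under 5 of the alternative settings, with log2 values of 0.08 to 0.12 there, including when sh-NC culture 2 or either shMETTL14 culture was left out. NSG1 had 39.5 and 39.9 CPM in sh-NC, against 91.9 and 93.9 CPM in shMETTL14 (2.34-fold, log2 1.23 ± 0.048). Its exons share 91 bases with STX18 on the opposite strand, whose input level had a log2 difference of -0.07 between the arms.

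Division of IP by input within a culture gives the enrichment of a gene by the m6A antibody, relative to the other genes of the same library. A ratio of 1 is that of a typical gene and does not mean absence of m6A, and a loss of m6A common to all genes cannot be seen on this scale. Within sh-NC, 6 of the 10 genes passed the test across all genes as higher in IP, beside 29.1% of 22953 genes, and 3 passed as lower, beside 29.8%. In shMETTL14 the counts were again 6 and 3, from the same genes, beside 28.9% and 29.1% of all genes. The genes higher in IP were NEFL, NEFM, NEFH, STMN1, STMN2 and GAP43, and those lower were INA, PRPH and NSG1. The median log2 IP over input of the 10 genes was 0.40 in sh-NC, compared with 0.32 in shMETTL14, beside -0.01 and -0.0083 over all genes.

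STMN1 and NEFH had the strongest enrichment. For STMN1 the ratio was 2.15 and 2.63 in the sh-NC cultures, against 2.49 and 2.26 in the shMETTL14 cultures. For NEFH it was 1.79 and 2.23 in sh-NC, compared with 1.98 and 1.87 in shMETTL14. In both genes the shMETTL14 cultures lay between the 2 sh-NC cultures.

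NEFL had ratios of 1.58 and 1.72 in sh-NC, against 1.56 and 1.59 in shMETTL14. GAP43 had 1.52 and 1.73 in sh-NC, compared with 1.52 and 1.52 in shMETTL14, and both of the latter lay just under the lower sh-NC culture. NEFM, which with NSG1 and STMN2 was more than 2-fold higher in input, had 1.27 and 1.53 in sh-NC, against 1.31 and 1.32 in shMETTL14. All 3 neurofilament chains were thus above 1 in every culture. STMN2 was above 1 by less, with 1.18 and 1.32 in sh-NC, compared with 1.21 and 1.17 in shMETTL14.

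The other filament genes and NSG1 were below 1. INA had ratios of 0.915 and 0.853 in sh-NC, against 0.986 and 0.861 in shMETTL14, and its call as lower was lost without sh-NC culture 2 (log2 -0.12 in sh-NC) and without shMETTL14 culture 2 (log2 -0.02 in shMETTL14), and in shMETTL14 also with DESeq2 (log2 -0.12). PRPH had 0.801 and 0.755 in sh-NC, compared with 0.766 and 0.752 in shMETTL14. NSG1 had the lowest ratios, 0.621 and 0.589 in sh-NC, against 0.665 and 0.666 in shMETTL14. STMN3 was near 1, at 0.998 and 0.948 in sh-NC, compared with 0.975 and 0.937 in shMETTL14, and in neither arm passed the test, although in shMETTL14 it passed as lower with a minimum of 10 counts in every library (log2 -0.10) and in both arms with scaling by library size only.

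**Figure D2:**
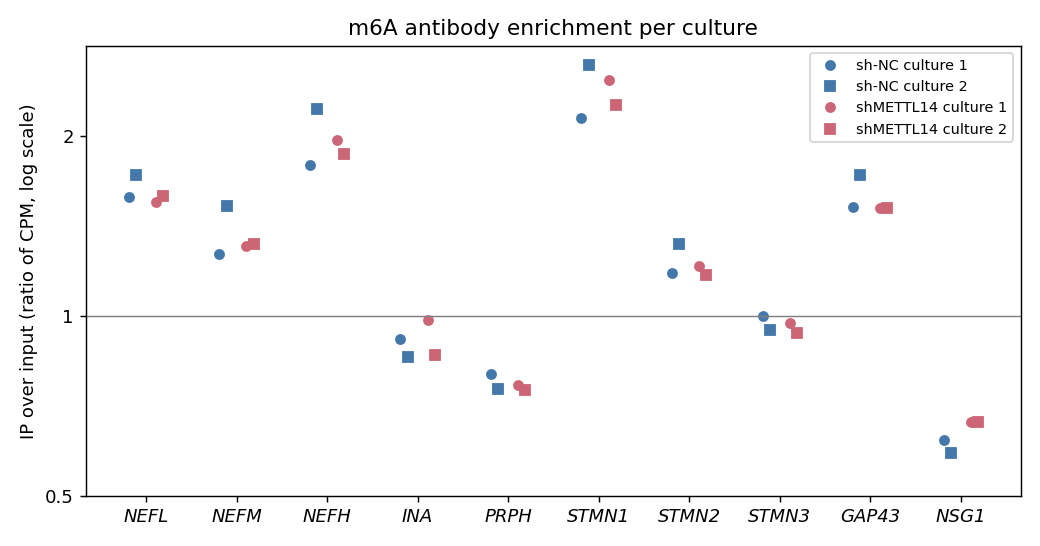
Ratio of IP to input CPM for each gene on a log scale, with 1 point per culture (blue for sh-NC, red for shMETTL14, circles for culture 1 and squares for culture 2) and a line at 1. STMN1 and NEFH lie highest and NSG1 lowest in every culture, and the spread between the blue points is often as wide as the gap between the arms.

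The same genes ordered by input difference and by enrichment gave different lists. The 3 genes more than 2-fold higher in the shMETTL14 inputs had mean sh-NC ratios of 1.40 (NEFM), 1.25 (STMN2) and 0.605 (NSG1). STMN1, whose arms overlapped in the input, had the highest mean ratio at 2.39. These 10 values come from the same libraries and were not tested for a relation.

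The comparison of IP over input between the arms asked whether any gene's enrichment differed after METTL14 knockdown beyond the spread between cultures. None of the 10 genes passed edgeR's test for this change, at an adjusted p of 0.05 or at an unadjusted p under 0.05, and none did with DESeq2 at an adjusted p of 0.05. Over all genes 0.00436% (1 gene) passed the adjusted threshold and 6.34% the unadjusted one. The estimates ran from -0.09 (GAP43, SE 0.056) to 0.13 (NSG1, SE 0.076) on the log2 scale, with -0.08 ± 0.055 for NEFM and -0.07 ± 0.054 for NEFL. STMN1 was estimated at -0.0048 ± 0.058. A simulation that changed 200 of all 22953 genes returned 8.5% of changes of log2 0.25 and 66.5% of changes of log2 1. These shares were not worked out for the 10 genes, whose standard errors ran from 0.053 (PRPH) to 0.076 (NSG1). How small a change could be found in the 10 genes was not tested, so the lack of calls does not show that their enrichment was equal.

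By the values per culture, GAP43 alone was lower and NSG1 alone was higher in both shMETTL14 cultures than in both sh-NC cultures, whereas 17.5% and 17.4% of all genes separated in these directions. The other 8 genes overlapped between the arms.

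The sh-NC cultures differed from each other, and this bears on the neurofilament values. All 6 genes with a mean sh-NC ratio above 1 had a higher ratio in sh-NC culture 2 than in culture 1, and all 4 genes below 1 had a lower ratio in culture 2. In the shMETTL14 cultures 2 of those 6 and 1 of those 4 were higher in culture 2. Over 16442 genes with a mean of at least 50 reads, 59.6% of those above 1 had a higher ratio and 56.3% of those below 1 a lower ratio in sh-NC culture 2. The SD of log2 IP over input was 0.646 in sh-NC culture 1 and 0.687 in culture 2, against 0.662 and 0.635 in the shMETTL14 cultures. With sh-NC culture 1 left out, so that culture 2 alone stood for sh-NC and was assumed to vary like the other groups, NEFM, NEFH and GAP43 passed as lower in shMETTL14, with log2 changes of -0.23, -0.23 and -0.20. In that setting 0.485% of all genes passed as lower, 116 genes in place of 1. With sh-NC culture 2 left out, NEFM and NEFH were at 0.05 and 0.10 and GAP43 at -0.0054, and none of the 10 genes passed. The choice of sh-NC culture thus set the sign of the change for NEFM and NEFH, and also for STMN1 (-0.17 or 0.14) and STMN2 (-0.17 or 0.01), which passed in neither case.

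**Figure D3:**
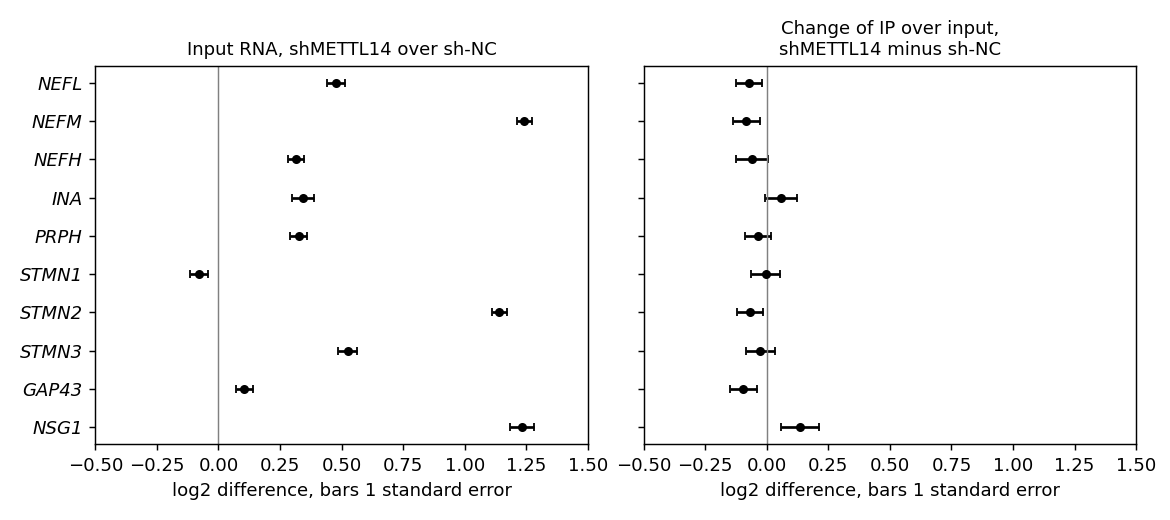
Log2 difference of input RNA (left) and log2 change of IP over input (right) between shMETTL14 and sh-NC for each gene, on the same scale, with bars of 1 standard error from the edgeR fits. Input differences run from -0.08 (STMN1) to 1.24 (NEFM), while the changes of IP over input lie between -0.09 and 0.13.

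Since the IP carries both the amount of RNA and its enrichment, the IP libraries were also set side by side. NEFM had 1141 and 1299 CPM in the sh-NC IPs, against 2726 and 2698 CPM in the shMETTL14 IPs, a 2.22-fold difference beside 2.36-fold in the inputs. STMN2 differed 2.09-fold in IP and 2.19-fold in input, and NSG1 2.57-fold in IP and 2.34-fold in input. GAP43 was at 344 and 379 CPM in the sh-NC IPs, compared with 364 and 361 CPM in the shMETTL14 IPs, which overlapped.

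Of the 10 genes, 5 share exonic bases with a gene on the opposite strand. The libraries were stranded per the labels, but the strand setting of the counting is not given in the sources used here. Of 360 genes that lay at least 90% inside an opposite-strand gene with at least 1 read per base, 85.3% had at least 0.1 times its read density, so reads from both strands of shared bases may be counted for both genes. For NEFM (chr8:24913012-24919098, plus strand, GRCh38) the partner was the clone gene GS1-72M22.1 (chr8:24912165-24914717, minus strand), which shares 1706 of its 2553 exonic bases with the start of NEFM. It had 4233 and 4356 reads in the sh-NC inputs, against 10861 and 10543 in the shMETTL14 inputs, or 8.51% to 14.2% of the reads of NEFM over the 8 libraries.

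The input of the clone gene differed between the arms by log2 1.09 ± 0.037, near the 1.24 of NEFM, and reads from the 2 strands cannot be told apart. Its IP over input was 0.987 and 1.01 in sh-NC, compared with 0.906 and 0.923 in shMETTL14, below that of NEFM in all 4 cultures. With the reads of the clone gene taken from those of NEFM, the ratio for NEFM on the log2 scale would be 0.54 in sh-NC and 0.46 in shMETTL14, in place of 0.48 and 0.40. Only 66.8% of the exonic bases of the clone gene are shared with NEFM, so this subtraction can also take away reads from outside NEFM.

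The heavy chain showed a like pattern on a smaller scale. AC000035.3, which shares 333 of its 343 bases with the start of NEFH (chr22:29480230-29491390, plus strand), had 0.870% to 2.13% of the reads of NEFH. Its IP over input was 1.28 and 1.00 in sh-NC, compared with 1.01 and 0.913 in shMETTL14, below that of NEFH in each culture. CTD-2168K21.2, inside NEFL (chr8:24950955-24957110, minus strand), had at most 15 reads in a library. Its read density in the inputs was 0.0038 to 0.015 times that of NEFL, although all 490 of its bases are shared. It starts at base 24956621, whereas the RefSeq annotation of NEFL ends at base 24956612.

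For PRPH (chr12:49293252-49298686, plus strand) the shared reads leave the value open to the counting. RP11-161H23.9 had IP over input of 0.852 and 0.800 in sh-NC, against 0.811 and 0.792 in shMETTL14, close to PRPH itself. If all of its reads were taken from PRPH, the log2 IP over input of PRPH would be -1.72 in sh-NC and -1.66 in shMETTL14 in place of -0.36 and -0.40, and its log2 input difference 0.26 in place of 0.33. Since the ratio of RP11-161H23.9 was above that of PRPH in each culture, this subtraction could only lower the ratio of PRPH. Only 58.7% of the exonic bases of RP11-161H23.9 are shared with PRPH, so the subtraction can also take away reads from outside PRPH.

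**Figure D4:**
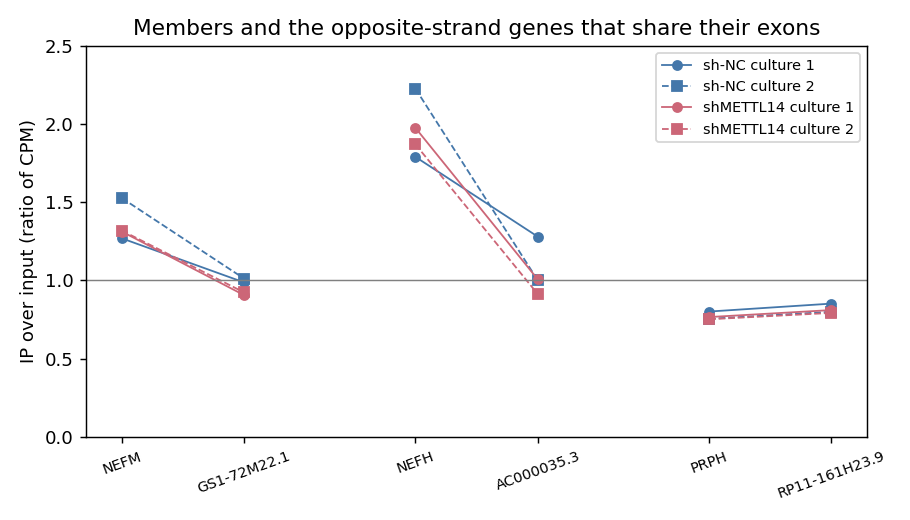
Ratio of IP to input CPM of NEFM, NEFH and PRPH, each joined to the opposite-strand gene that shares its exons, for the 4 cultures (blue for sh-NC, red for shMETTL14, solid lines and circles for culture 1, dashed lines and squares for culture 2). The ratio of NEFM and of NEFH exceeds that of the partner in every culture, and PRPH and its partner lie close together.

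The gene structures were compared because m6A is known to be frequent in long internal exons and near stop codons. The measure used, the longest merged exon, can be a first, internal or last exon, so it does not single out internal exons. NEFL, NEFM and NEFH each had 4 merged exons, with the longest at 1998, 2038 and 2542 bases. INA had 3 merged exons with the longest at 1992 bases, close to NEFL and NEFM, yet its IP over input was below 1. GAP43 was above 1 with 4 merged exons and the longest at 697 bases. STMN1 had 10 merged exons (longest 2407), STMN2 7 (1361), STMN3 8 (1693), PRPH 9 (2044) and NSG1 10 (1824).

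Across 16442 genes, which are not independent, log2 IP over input in sh-NC had a Pearson r of 0.176 and a Spearman rho of 0.165 with the log2 length of the longest exon, which is weak. The median ran from log2 -0.15 in the fifth of genes with the shortest longest exon to 0.16 in the fifth with the longest. STMN1 and NEFH, the most enriched of the 10, belong to the fourth of these 5 groups and GAP43 to the first. With counts per whole gene, the place of m6A within a transcript was not analysed here.

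Other genes of the same systems were taken from 5 lists by function, 56 genes in all, of which 55 could be tested. In the input comparison 27 passed edgeR's quasi-likelihood test as higher, 8 as lower and 20 did not pass, beside 11.7% and 12.3% of all genes called higher and lower. The lists were chosen with earlier results of these data known, so their counts and medians are a description.

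Of 11 other intermediate filament genes tested, none rose, 3 fell and 8 did not pass, beside 11.7% of all genes higher and 12.3% lower. VIM (vimentin, the filament of mesenchymal and immature cells) fell by 0.30 on the log2 scale (SE 0.028, adjusted p = 1.5e-08, edgeR). KRT18 and KRT19, epithelial keratins, fell by 1.41 and 0.33 from low counts. KRT18 lost its call without sh-NC culture 1 or either shMETTL14 culture (log2 -1.04 to -1.72) and KRT19 without sh-NC culture 2 or either shMETTL14 culture (-0.22 to -0.46), and KRT19 also with DESeq2 (-0.33). In sh-NC IP over input 2 of the 11 were higher and 3 lower, beside 29.1% and 29.8% of all genes. SYNM (synemin) was highest at log2 0.76 and VIM lowest at -0.79.

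Relatives of the stathmins, GAP43 and NSG1 all passed in the input comparison, 6 as higher and 2 as lower of 8, beside 11.7% and 12.3% of all genes. STMN4, the fourth stathmin, rose by log2 0.89 (adjusted p = 5.6e-12, edgeR), from 1286 and 1275 reads in sh-NC to 2736 and 2808 in shMETTL14. MARCKSL1, an actin-binding kinase substrate, rose by 0.39, and NSG2, the paralogue of NSG1 listed under its older name HMP19, rose by 0.34. BASP1, a growth cone protein related in function to GAP43, rose by 0.28 and had the highest IP over input of the list in sh-NC (log2 1.05). MARCKS fell by 0.23 and CALY, a paralogue of NSG1, fell by 0.30, the latter without a call when sh-NC culture 1 or either shMETTL14 culture was left out (-0.18 to -0.41) and with DESeq2 (-0.30). In sh-NC IP over input 4 of the 8 were higher and none lower, beside 29.1% and 29.8% of all genes.

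Of 18 microtubule and growth cone proteins, 14 rose in input and none fell, beside 11.7% and 12.3% of all genes, with a median log2 difference of 0.33 beside 0.0024 over all genes. DCX (doublecortin) rose by log2 0.91 (adjusted p = 2.9e-12, edgeR) and MAPT (tau) by 0.89 (adjusted p = 4.8e-12, edgeR). TUBB3, the neuronal beta-tubulin, rose by 0.59 and MAP1A by 0.59. In sh-NC IP over input 7 were higher and 9 lower, beside 29.1% and 29.8% of all genes. MAP1A was the highest at log2 0.98 and UCHL1, a ubiquitin hydrolase abundant in neurons, the lowest at -1.48, and DCX was at -0.93.

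Of 12 kinases, linkers and turnover factors of neurofilaments, 4 rose and 3 fell in input, beside 11.7% and 12.3% of all genes. CDK5, which phosphorylates the tails of NEFM and NEFH, rose by log2 0.51 and KIF5C, a kinesin that carries neurofilaments, by 0.40. MAPK9, a stress-activated kinase, fell by 0.25, and its call was lost when sh-NC culture 1 or either shMETTL14 culture was left out (log2 -0.19 to -0.32), while that of CDK5 was lost without shMETTL14 culture 2 (0.42). CDK5R1, the activator of CDK5, had the highest sh-NC IP over input of this list at log2 0.65.

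Of 7 neuronal RNA-binding proteins, 6 could be tested, and 3 rose in input and none fell, beside 11.7% and 12.3% of all genes. ELAVL3, a neuronal Hu protein, rose by log2 0.73 (adjusted p = 3.3e-14, edgeR), TARDBP rose by 0.23 and ELAVL2 by 0.28, the last without a call when sh-NC culture 1 or either shMETTL14 culture was left out (0.22 to 0.30) and with DESeq2 (0.28). TARDBP had the highest sh-NC IP over input of these at log2 0.75 and KHSRP the lowest at -0.48. Not one of the 55 genes passed the test for a change of IP over input by edgeR at an adjusted p of 0.05, and 9 (3 higher and 6 lower) did at an unadjusted p under 0.05, a threshold that 6.34% of all genes passed.

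Genes whose profile over the 8 libraries was most like that of a member were found by the Pearson r of log2 CPM, among 16442 genes. For NEFL they were WIPF2, MAP1A and CNTRL (r of 0.999, 0.999 and 0.998), for STMN2 TRIM67, PDE4C and MEG3 (0.996, 0.996 and 0.995), and for GAP43 MAP3K1, NCOA6 and MAP7 (each 0.999). The 8 libraries form 4 pairs, and 62 genes had an r of at least 0.99 with NEFL, 10 with STMN2 and 356 with GAP43. PDE4C, the second of those for STMN2, had a log2 input difference of 1.43 and a log2 sh-NC IP over input of 0.40.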

How the data were processed

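MeRIP-seq libraries of SK-N-BE(2) cells were assigned to sh-NC or shMETTL14, and to IP or input, from their labels. The authors deposited raw counts of reads per gene. The submitters' processing notes name Trimmomatic 0.36 and GRCh38; the aligner, the tool that counted reads, the strand setting and the removal of duplicates by molecular identifier are not given in the sources used here, and kept duplicates would add to the spread between cultures. Exon coordinates and gene lengths are those of the deposited count table, in which 15650 genes overlap another gene's exons.

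Tests were run with edgeR 4.0.16 in R 4.3.3 (filterByExpr, TMM factors, glmQLFit, glmQLFTest, Benjamini-Hochberg adjustment, threshold 0.05), with Python 3.11.15, pandas 2.3.3 and matplotlib 3.10.9 for tables and figures. RNA levels were compared over the 4 inputs (22245 genes), and IP over input and its change used 8 libraries in 1 model (22953 genes). Standard errors are the log2 difference over the square root of F. TMM sets the typical gene to no change, so a loss of m6A common to all genes is removed. Log CPM used a prior count of 2.

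The genes and gene lists were chosen with earlier results of these data known. Named are the 10 genes, METTL14, genes overlapping a member, and per list the 2 largest called rises and falls in input and the highest and lowest sh-NC IP over input; the adrenergic, Schwann, fibroblast and blood cell genes come from the marker lists. NSG2 and TUBB3 fall outside this rule and were named after their values were seen. Some genes that the rule names are not reported here. Likeness was ranked among genes with a mean of at least 50 counts.

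IP and input of the same number within an arm were taken to come from 1 culture, as their titles pair them. Their deviations from the group means had correlations of 0.0040 (sh-NC) and 5.7e-05 (shMETTL14) over 22953 genes. The counts therefore do not show this pairing. Replicates differed by more than sampling noise (chi-square per gene of 2.43 to 4.00, the highest for the sh-NC IPs), and none was treated as a repeated deposit. On simulated counts with 200 genes changed in 22245, the input test recovered 82% of changes of log2 1, 47.5% of log2 0.5 and 23.5% of log2 0.25. The results were recomputed with each culture left out, with the replicate block, with DESeq2 1.42.0, with scaling by library size only or by RLE factors, with a minimum of 10 counts in each library or of 1 read in total, with genes without exon overlap, with the input contrast from all 8 libraries, and from the IP libraries alone. The unadjusted threshold and the subtraction of the opposite-strand gene's counts were added after the data had been seen.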

Additional observations from a re-analysis of the deposited data

How the results depend on the processing

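The counts of called members kept within 1.5 times of their values under RLE factors, library size only, DESeq2 and both filters on low counts. Library size only moved the median log2 IP over input of all genes to -0.14 in sh-NC and -0.13 in shMETTL14, and STMN3 then passed as lower in both arms at -0.17 and -0.19, close to that shift. With genes without exon overlap, which by construction leave out NEFL, NEFM, NEFH, PRPH and NSG1, 4 members were higher in input, and 3 were higher and 1 was lower in IP over input in each arm. The IP libraries alone, which by construction keep the RNA difference, gave 8 members higher, beside 10.4% of all genes higher and 12.6% lower. Without 1 culture, input calls ran from 8 to 9 higher and 0 to 1 lower, those of IP over input were 6 higher and 2 to 3 lower in either arm, and those of its change were 0 higher and 0 to 3 lower.

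With the replicate block, the calls were 9 members higher in input, 6 higher and 3 lower in IP over input in each arm, and 0 for its change. The block thus changed no count of called members. For IP over input and its change, the block was the culture taken from the labels to have given both libraries. In the input test it joined cultures of the same number across the arms, a pairing the labels do not state. The correlation of their deviations was -0.012. Of the other genes the block made CDK5R1 pass in input (log2 0.36).

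Several log2 values changed sign. In the change of IP over input, the IP libraries alone gave 0.40 for NEFL, 1.15 for NEFM, 0.25 for NEFH, 0.28 for PRPH, 1.07 for STMN2, 0.49 for STMN3, 0.0019 for GAP43 and -1.70 for METTL14, and library size only gave 0.0051 for STMN1. Without 1 culture, NEFM ran from -0.23 to 0.051, NEFH from -0.23 to 0.10, INA from -0.042 to 0.16, STMN1 from -0.17 to 0.14 (0.06 without shMETTL14 culture 2), STMN2 from -0.17 to 0.015, STMN3 from -0.064 to 0.0017 and METTL14 from -0.0026 to 0.19. In sh-NC IP over input, library size only gave -0.11 for CALY, -0.10 for MAPT and -0.13 for ELAVL3, and at least 10 counts gave -0.014 for CALY, -0.0025 for MAPT and -0.025 for ELAVL3. Without 1 culture STMN3 ran from -0.063 to 0.0028, MARCKSL1 from -0.059 to 0.016, CALY from -0.012 to 0.043, MAPK9 from -0.21 to 0.025 and ELAVL3 from -0.0059 to 0.027. Apart from MAPK9 without sh-NC culture 2 and ELAVL3 by library size only, none of these values passed the test outside the IP libraries alone and the cases named for NEFM and NEFH; the causes were not tested. With no filter beyond 1 read the input calls of GAP43, KRT18, KRT19, CALY, CDK5, MAPK9 and ELAVL2 were lost. Having 2 cultures per arm limits these estimates. Read depth limits them too for NSG1 and CALY, with as few as 716 and 378 reads in a library. It does so more for KRT18, KRT19, CDK5R1 and ELAVL2, with as few as 10, 174, 177 and 347 reads.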
